A study of Arabidopsis thaliana with 12 samples.

Results

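The response to acute ozone (O3) was analysed in whole rosettes of the Arabidopsis thaliana accession Cvi-0 (Cvi). All gene loci with a count in any of the 6 Cvi libraries were taken as members, which gave 27267 genes out of 28549 tested over the whole series of 12 libraries. The O3 group held 3 libraries of Cvi plants aged 3 weeks that received 350 nL per L O3 for 2 h. The clean air (CA) group held 3 libraries of Cvi plants of the same age kept for the same time in ambient air without added O3. Each library was made from 4 pooled rosettes of soil-grown plants and polyadenylated RNA was sequenced. The other 6 libraries, from the accession Shahdara (Sha) in O3 and in CA, entered the same model and were used where the responses of the accessions are compared. Cvi is a natural accession from the Cape Verde Islands that carries an impaired form of MPK12, a guard cell kinase, and has wide open stomata, so that more gas enters its leaves. Reads were assigned to transcripts of the accession Col-0, and reads of Cvi that differ from that sequence may have been lost or placed on a related gene.

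Ozone enters the leaf through the stomata and breaks down in the cell wall space into reactive oxygen species (ROS). Plant cells sense apoplastic ROS in ways that overlap with the sensing of microbes: plasma membrane NADPH oxidases produce more ROS, calcium enters the cytosol, mitogen-activated protein kinases are switched on, and salicylic acid (SA), jasmonate (JA), ethylene and abscisic acid (ABA) set the course of defence, cell death and stomatal closure. Leaves under such stress also lower the expression of genes for photosynthesis and growth.

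The 6 Cvi libraries held between 21699862 and 31565681 estimated counts in O3 and between 23774392 and 33571953 in CA. The first principal component over Cvi genes, with 95.7% of the variance, separated O3 from CA libraries. Pairs of replicate libraries had chi-square values of their counts between 15.0 and 23.4 per degree of freedom, so that none was a repeat of another. Counts in O3 were spread over more genes, since the 10 most abundant genes held 4.84 ± 0.0974% of counts in O3 and 9.50 ± 0.373% in CA (SD, n = 3 each). The two-sided exact permutation test gave p = 0.1 for this measure, the smallest value that 3 against 3 libraries allow (adjusted p = 0.167 over 5 library measures). Mesophyll markers summed to between 16526 and 20663 CPM (counts scaled to a common library size) in O3 against between 41919 and 46004 CPM in CA, and all 4 were called lower. For guard cell markers the sums were between 48.2 and 57.9 CPM in O3 and between 71.1 and 80.7 CPM in CA, with MYB60 and KAT1 called lower and HT1 and FAMA not called. Phloem markers summed to between 233 and 291 CPM in O3 and between 280 and 346 CPM in CA. Markers of root, flower, pollen and seed summed to at most 0.941 CPM in any library, although the flower marker AP1 was called higher. In whole rosettes, fewer cells of a type and less RNA per cell cannot be told apart.

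Gene expression was compared between O3 and CA with edgeR, and a gene was called when its change exceeded 1.2-fold at a false discovery rate (FDR) of at most 0.05. In O3, 24.3% of all genes tested (6948) were called higher and 23.2% (6626) were called lower. These shares are the background against which the counts below are read, and they include genes with few or no counts. When only the 18974 members averaging 1 CPM or more were considered, 61.5% were called. Of the protein-coding genes among these, 5441 were higher, 5960 lower and 7029 neither, so both shares were larger than the background. A list somewhat above the background is therefore not shown to differ from expressed genes in general. Rises were larger than falls: the median log2 fold change was 2.11 among genes called higher and -1.16 among genes called lower, and 1592 genes rose by more than 4 on the log2 scale, whereas 125 fell by more than that. For 1029 of the genes called higher, every CA library was at or below 3 counts, a floor that corresponds to at most 0.149 CPM. A further 3751 members were at this floor in both groups. The libraries of O3 and CA did not overlap for 16960 members, a share of 62.2%.

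The 8 largest rises among genes with more than 3 counts in every CA library, a mean of at least 10 CPM and no overlap between groups lay between 9.68 and 11.24 on the log2 scale. AT1G56060, a gene for a protein with a cysteine-rich transmembrane domain (chromosome 1, 20966528 to 20967180, TAIR10.1), had 658, 628 and 725 CPM in O3 and 0.314, 0.232 and 0.261 CPM in CA. Its log2 fold change was 11.24 (SE 0.52, adjusted p = 1.61e-60). AT4G39670, whose product belongs to the glycolipid transfer protein family, had 763, 869 and 768 CPM in O3 and 0.502, 0.348 and 0.523 CPM in CA, a log2 fold change of 10.75 (SE 0.33). CML37, a calmodulin-like calcium sensor, had 702, 507 and 585 CPM in O3 and 0.533, 0.309 and 0.261 CPM in CA (log2 fold change 10.62, SE 0.49). In each of these genes the lowest O3 library, 507 CPM in CML37, stood far above the highest CA library, 0.533 CPM. PMZ, a stress-associated zinc finger protein, rose by 10.16 on the log2 scale, and the cysteine-rich receptor-like kinase CRK13 by 10.01. The pectin methylesterase gene AT2G45220 (PME17) rose by 9.78 and AT1G57650 by 9.68. AT3G02840 rose by 10.17, but it overlaps 2 other genes, and its count is uncertain because the use of strand by the authors is not given in the sources used here. Other named genes, among them ERF109, ATAF1, ASA1, WRKY40, CAT2 and SAG21, also overlap neighbours, and the same limit applies to them.

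The 8 largest falls, chosen in the same way with more than 3 counts in every O3 library, lay between -5.13 and -6.07. TBL26, of a family that includes enzymes adding acetyl groups to cell wall polysaccharides, had 3.43, 1.78 and 1.85 CPM in O3 and 172, 146 and 155 CPM in CA, a log2 fold change of -6.07 (SE 0.42, adjusted p = 1.06e-30). AT2G27420, a gene for a papain-type cysteine protease, had 1.34, 1.44 and 1.57 CPM in O3 and 98.2, 84.3 and 62.8 CPM in CA (log2 fold change -5.81, SE 0.58). CYP706A6, a cytochrome P450 gene, had 2.58, 1.54 and 0.940 CPM in O3 and 85.0, 95.5 and 93.5 CPM in CA (log2 fold change -5.77, SE 0.43). The highest O3 library of these genes was at 3.43 CPM and the lowest CA library at 62.8 CPM. The chloroplast ferric reductase gene FRO7 fell by 5.75, although it has a copy, FRO6, with 90.6% identity. AT5G24155, annotated as an FAD-dependent oxidoreductase, fell by 5.66, the carotenoid cleavage dioxygenase CCD4 by 5.36, PRE1, a helix-loop-helix protein that promotes cell elongation, by 5.19, and DES1, a cytosolic cysteine desulfhydrase, by 5.13.

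**Figure D1:**
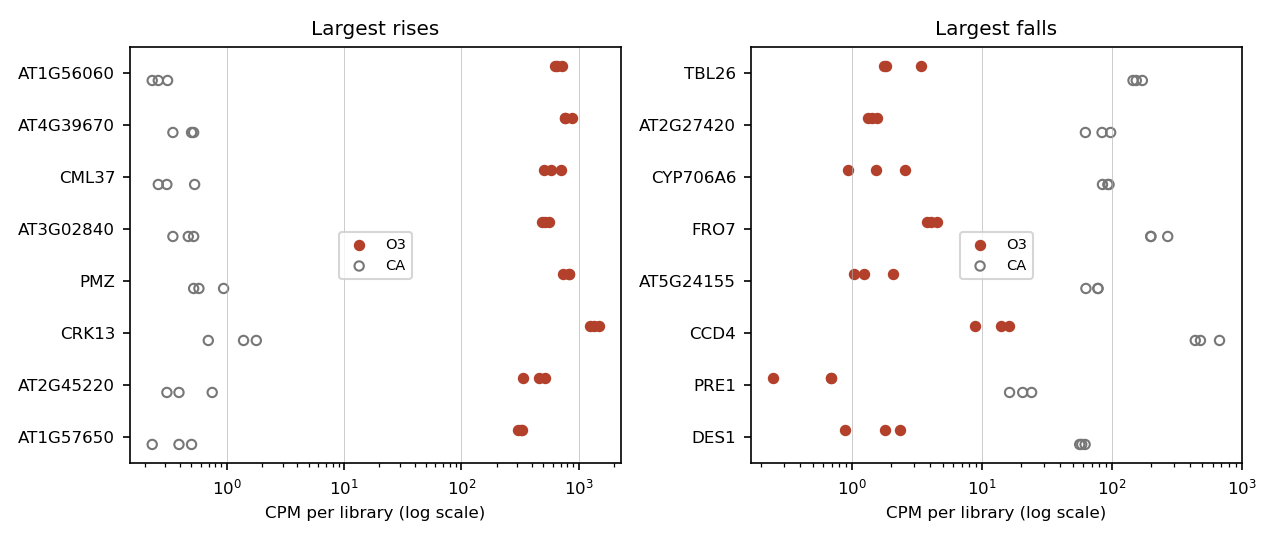
Normalised counts in CPM (log axis) in each of the 3 O3 (filled) and 3 CA (open) libraries of Cvi for the 8 largest rises (left panel) and the 8 largest falls (right panel) among genes with more than 3 counts in every library of the lower group, a mean of at least 10 CPM and no overlap between groups. The O3 and CA libraries lie apart in every gene because the genes were chosen so. AT1G56060 lay between 628 and 725 CPM in O3 and at most at 0.314 CPM in CA.

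The stretches directly before the annotated starts of the first 3 rises and the first 3 falls are given, because these are the regions in which binding motifs of stress transcription factors were searched. They run 5′ to 3′ on the strand of the gene and are 250 bases each, read from the TAIR10.1 assembly of Col-0, with capitals where one of the motifs named afterwards was found. The windows of the rises are chr1:20967181-20967430 (minus strand) for AT1G56060, chr4:18409596-18409845 (plus strand) for AT4G39670 and chr5:16943821-16944070 (minus strand) for CML37. Those of the falls are chr4:468295-468544 for TBL26, chr2:11727655-11727904 for AT2G27420 and chr4:7316872-7317121 for CYP706A6, all on the minus strand.
AT1G56060: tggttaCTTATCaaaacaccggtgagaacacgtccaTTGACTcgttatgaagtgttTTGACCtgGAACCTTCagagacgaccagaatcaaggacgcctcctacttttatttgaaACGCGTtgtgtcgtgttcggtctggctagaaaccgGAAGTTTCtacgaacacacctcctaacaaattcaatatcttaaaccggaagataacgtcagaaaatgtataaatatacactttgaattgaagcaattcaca
AT4G39670: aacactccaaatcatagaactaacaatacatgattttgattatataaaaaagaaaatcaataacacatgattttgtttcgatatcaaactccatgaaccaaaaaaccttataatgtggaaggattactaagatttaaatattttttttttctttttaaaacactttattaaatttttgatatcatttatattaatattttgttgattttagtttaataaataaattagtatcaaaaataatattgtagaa
CML37: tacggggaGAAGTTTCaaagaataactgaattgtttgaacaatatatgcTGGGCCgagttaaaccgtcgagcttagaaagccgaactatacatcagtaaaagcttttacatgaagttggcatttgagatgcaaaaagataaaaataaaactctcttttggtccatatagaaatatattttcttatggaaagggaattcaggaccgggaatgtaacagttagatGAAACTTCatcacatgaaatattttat
TBL26: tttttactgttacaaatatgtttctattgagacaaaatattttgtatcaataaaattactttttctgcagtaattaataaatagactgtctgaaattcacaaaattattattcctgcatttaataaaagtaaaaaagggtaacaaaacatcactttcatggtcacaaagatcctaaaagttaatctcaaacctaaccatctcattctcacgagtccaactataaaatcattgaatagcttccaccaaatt
AT2G27420: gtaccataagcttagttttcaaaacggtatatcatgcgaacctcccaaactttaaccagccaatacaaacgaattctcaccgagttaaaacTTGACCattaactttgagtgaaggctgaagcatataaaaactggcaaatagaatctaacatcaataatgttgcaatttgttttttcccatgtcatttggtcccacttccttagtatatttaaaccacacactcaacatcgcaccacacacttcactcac
CYP706A6: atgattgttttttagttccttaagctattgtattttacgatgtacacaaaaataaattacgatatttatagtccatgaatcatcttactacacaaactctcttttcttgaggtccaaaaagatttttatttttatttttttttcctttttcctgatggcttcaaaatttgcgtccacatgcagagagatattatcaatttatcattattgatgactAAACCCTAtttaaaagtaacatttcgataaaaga

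The window of AT1G56060 held 2 W-boxes, the sites of WRKY factors, with TTGACC between 189 and 194 and TTGACT between 209 and 214 bases before the start. It also held the letters of the CAMTA box, the site of calmodulin-binding transcription activators, on both strands between 131 and 136 bases before the start, and 2 heat shock elements, GAACCTTC and GAAGTTTC. An I-box on the reverse strand stood in the same window. CML37 had heat shock elements between 235 and 242 and between 20 and 27 bases before its start and 1 site II element. Neither AT4G39670 nor TBL26 had a match. AT2G27420, a gene that fell, had 1 W-box between 154 and 159 bases before its start, and CYP706A6 a telo-box between 27 and 34 bases.

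Across all genes with such a window (24475), motifs were counted on both strands as a description, with Wilson 95% confidence intervals (CI) that cover counting error only. The W-box (TTGACC or TTGACT) stood in 36.2% of windows of genes called higher (CI 35.0 to 37.3), 22.9% of those called lower (CI 21.9 to 24.0) and 28.5% of all. Its share was 44.0% among 1500 genes with rises above 4 on the log2 scale. A CAMTA box (CGCGT) was found in 10.5% of windows of genes called higher, 5.74% of those called lower and 7.17% of all. It reached 14.9% among the rises above 4 and was at 3.55% among 1013 genes with falls of more than 2. For the heat shock element (GAANNTTC) the shares were 11.9% in genes called higher, 7.93% in genes called lower and 9.57% in all, with 16.6% among the rises above 4. Site II (TGGGCC), found before many genes for ribosomal and mitochondrial proteins, ran the other way, with 12.1% in genes called higher, 16.0% in genes called lower and 14.6% in all. The genes with the deepest falls did not share this direction, since site II stood in 7.31% of windows among falls of more than 2 (CI 5.86 to 9.07) and in 105 of 1500 windows among rises above 4. The G-box (CACGTG) stood in 8.00% of windows of genes called higher, 7.01% of those called lower and 6.85% of all, and the GCC-box (GCCGCC) in 2.29%, 1.49% and 1.89%. The evening element (AAATATCT) was found in 5.15% of windows of genes called higher and 5.17% of those called lower, against 4.84% of all. For the telo-box (AAACCCTA) the shares were 3.27% in genes called higher, 3.70% in genes called lower and 4.18% in all, and for the I-box (GATAAG) 12.4%, 13.1% and 12.3%. No motif searched contains another in full, but neighbouring matches can overlap in part, as the 2 strands of the CAMTA box did in AT1G56060.

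**Figure D2:**
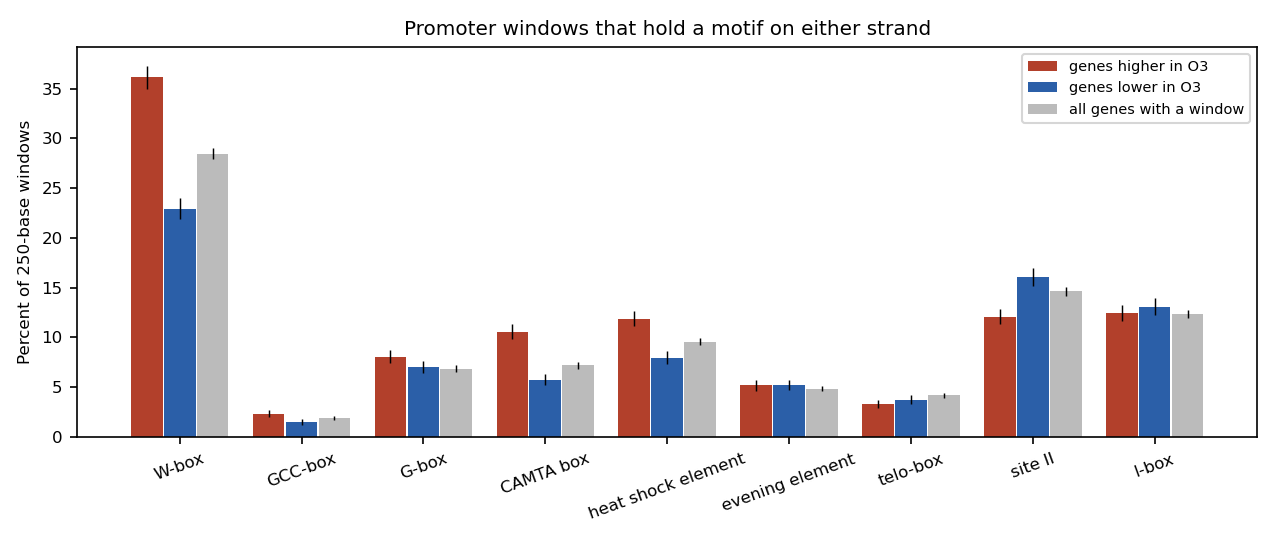
Percent of promoter windows of 250 bases that hold each motif on either strand, for genes called higher in O3 (red), genes called lower (blue) and all genes with a window (grey). Bars start at 0 and whiskers are Wilson 95% confidence intervals, and the W-box shows the widest gap, 36.2% in genes called higher against 22.9% in genes called lower.

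Where abundance rather than fold change is considered, the 8 largest gains included a pair of glutathione S-transferases, a malic enzyme, a polyubiquitin and a chaperone. Per kilobase of transcript, the glutathione S-transferase gene GSTF6 gained most, with 5428, 4513 and 5634 CPM in O3 and 33.8, 30.9 and 58.7 CPM in CA (log2 fold change 6.98, SE 0.32). Its neighbour GSTF7 had 2334, 1892 and 2509 CPM in O3 and 14.3, 14.1 and 28.4 CPM in CA, but both share 92.6% identity and reads may have been split between them. NADP-ME2, the cytosolic NADP-dependent malic enzyme, had 5972, 6156 and 6799 CPM in O3 against 148, 205 and 239.9 CPM in CA. Further gains were found in AT5G35735, the polyubiquitin gene UBQ10, NHL3 of the NDR1/HIN1-like family, the blue copper-binding protein BCB and the chaperone Hsp70-2, with log2 fold changes between 1.87 for UBQ10 and 7.95 for BCB. NHL3 overlaps 2 other genes.

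The losses in abundance were all in carbon fixation and light harvesting. RBCS1A, a small subunit of Rubisco, had 8838, 7366 and 6716 CPM in O3 and 17463, 17239.9 and 17343 CPM in CA (log2 fold change -1.18, SE 0.33, adjusted p = 0.00342). RCA, which activates Rubisco, had 3833, 3543 and 3380.3 CPM in O3 and 13453, 14836 and 12346 CPM in CA (log2 fold change -1.92, SE 0.24). The other 6 were RBCS2B, RBCS3B, LHCB1.3, LHCB1.2, LHCB1.5 and LHCB3, with log2 fold changes between -0.91 and -1.60. The RBCS2B, RBCS3B and LHCB1 genes have copies with at least 90% identity, so the division of counts within each family is uncertain. RBCS3B (-0.91, adjusted p = 0.0287) was no longer called with DESeq2, with the quasi-likelihood test or without CA replicate 1 (-0.87), CA replicate 2 (-0.92), O3 replicate 2 (-0.87) or O3 replicate 3 (-0.86).

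The members were then grouped by function in 37 lists of textbook pathways and families, and each list is described by its calls against the backgrounds of 24.3% and 23.2% and by its median log2 fold change, which was -0.01 over all members. The list medians ran from 4.74 for stress transcription factors to -2.13 for aliphatic glucosinolate synthesis. The share called higher was over 50% in 15 lists, and the share called lower was over 50% in 10 lists.

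**Figure D3:**
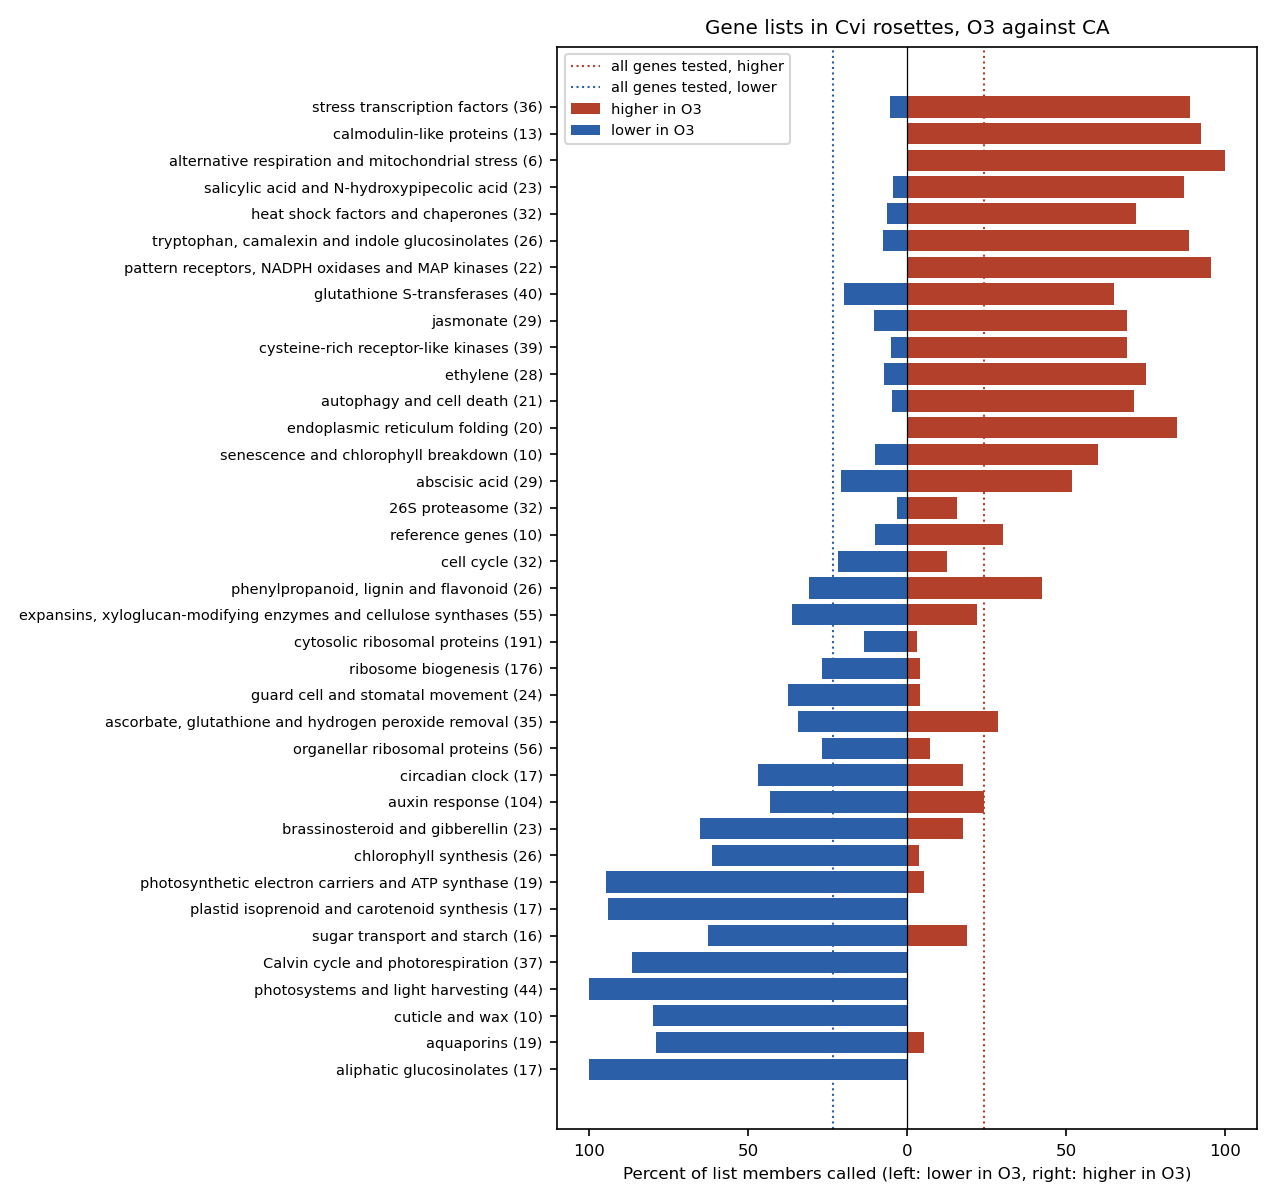
Percent of members called higher (red, to the right) and lower (blue, to the left) in O3 than in CA for 37 gene lists, ordered by median log2 fold change with the highest at the top and with the number of members in parentheses. Dotted lines mark the shares over all genes tested, 24.3% higher and 23.2% lower, and the lists run from stress transcription factors with 32 of 36 higher to aliphatic glucosinolates with 17 of 17 lower.

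Genes of early signalling rose as a group. In the list of pattern receptors, NADPH oxidases and MAP kinases, 21 of 22 members were called higher and none lower, with a median of 2.83. RBOHD, the main NADPH oxidase of the leaf, had 823, 764 and 800.0 CPM in O3 and 63.7, 71.3 and 70.1 CPM in CA, a log2 fold change of 3.54 (SE 0.20, adjusted p = 2.23e-51). Its relative RBOHC had 380.5, 325 and 311 CPM in O3 and 1.04, 0.541 and 0.523 CPM in CA (log2 fold change 8.90, SE 0.57). OXI1, a kinase activated by hydrogen peroxide, had 271, 298 and 255 CPM in O3 and 0.220, 0.116 and 0.0871 CPM in CA (log2 fold change 10.82, SE 0.54), and it was not among the 8 largest rises because CA replicates 2 and 3 held no more than 3 counts. The flagellin receptor FLS2 rose by 2.12, and the kinases MPK3 and MPK6 by 2.67 and 1.59. All of these genes had O3 libraries above every CA library, where O3 and CA did not overlap for 62.2% of all members.

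Genes for calcium sensors and receptor-like kinases rose too. Of 13 calmodulin-like proteins, 12 were called higher and none lower (median 4.50). TCH3, a touch-responsive calmodulin-like gene, had 3095, 2399 and 2862 CPM in O3 and 38.3, 59.2 and 75.8 CPM in CA (log2 fold change 5.59, SE 0.24). Cysteine-rich receptor-like kinases (CRKs), extracellular receptors many of which respond to ROS, had 27 of 39 members called higher and 2 lower (median 2.37). CRK13 had 1358, 1238 and 1474 CPM in O3 and 1.79, 1.39 and 0.697 CPM in CA. CRK42 ran against the list, with 8.04, 7.68 and 6.44 CPM in O3 and 39.8, 44.7 and 36.2 CPM in CA (log2 fold change -2.45, SE 0.16).

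Stress transcription factors had the highest median of all lists, 4.74, with 32 of 36 called higher and 2 lower (1 lower with DESeq2 or without O3 replicate 1). ZAT12, a zinc finger factor of the oxidative stress response, had 1001, 1017 and 957 CPM in O3 and 1.16, 0.580 and 2.53 CPM in CA (log2 fold change 9.45, SE 0.57). WRKY40 had 494, 474 and 599.5 CPM in O3 and 1.66, 1.43 and 2.31 CPM in CA (log2 fold change 8.19, SE 0.25). MYB15, which activates genes of lignin synthesis in defence, rose by 9.59 and the NAC factor ATAF1 by 4.65. ERF109 was at the floor in CA and had 41.9, 74.0 and 54.0 CPM in O3, at least 499-fold higher than 3 counts per library. WRKY60, a partner of WRKY40, was 1 of the 2 members called lower, with 3.57, 2.23 and 2.96 CPM in O3 and 6.74, 6.61 and 7.10 CPM in CA (log2 fold change -1.22, SE 0.27).

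Most genes of SA synthesis and signalling were higher, while the late marker PR1 was not called. The list of SA and N-hydroxypipecolic acid, a signal of systemic immunity, had 20 of 23 members called higher, 1 lower and a median of 3.85. ICS1, which makes isochorismate as the SA precursor in the plastid, had 1709.5, 1058 and 1414 CPM in O3 and 17.9, 15.2 and 15.2 CPM in CA (log2 fold change 6.43, SE 0.25, adjusted p = 4.91e-89). EDS5, which exports isochorismate to the cytosol, had 1021, 849.9 and 949.6 CPM in O3 and 2.85, 2.86 and 3.88 CPM in CA (log2 fold change 8.20, SE 0.33). PBS3, which joins isochorismate to glutamate, rose by 5.02. EPS1, whose product completes SA from that conjugate, was the member called lower, with 2.83, 2.82 and 2.47 CPM in O3 and 8.59, 11.9 and 7.28 CPM in CA (log2 fold change -1.78, SE 0.28). The regulator CBP60G rose by 6.06. FMO1, which makes N-hydroxypipecolic acid, had 68.5, 53.3 and 47.6 CPM in O3 and 0.125, 0.0773 and 0 CPM in CA (log2 fold change 9.51, SE 0.85). Among SA-responsive genes, PR2, a glucanase, had 611, 600.3 and 439.7 CPM in O3 and 109, 58.1 and 135 CPM in CA (log2 fold change 2.45, SE 0.30). PR1 had 8.09, 12.7 and 7.73 CPM in O3 and 20.5, 7.15 and 51.1 CPM in CA. Its groups overlapped and it was not called (log2 fold change -1.47, SE 0.83, adjusted p = 0.152), although it was called lower when only the 6 Cvi libraries were fitted.

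JA genes were higher at most steps, with 20 of 29 members called higher, 3 lower and a median of 2.47. AOC3, an allene oxide cyclase of the plastid, had 1142, 1477 and 1249 CPM in O3 and 4.17, 4.99 and 5.40 CPM in CA (log2 fold change 8.05, SE 0.31). The lipoxygenases LOX3 and LOX2, which carry out the same step, went opposite ways. LOX3 had 255, 327 and 269 CPM in O3 and 17.2, 17.1 and 19.9 CPM in CA (log2 fold change 3.97, SE 0.20), whereas LOX2 had 322, 252 and 243 CPM in O3 and 1379, 1412 and 1555 CPM in CA (log2 fold change -2.41, SE 0.43). The repressors JAZ1 and JAZ10 rose by 6.47 and 4.68. AOS, the allene oxide synthase, had a log2 fold change of 0.81 (adjusted p = 0.0170) that was no longer called with upper quartile factors or without CA replicate 2 (0.75), O3 replicate 1 (0.73) or O3 replicate 2 (0.77). VSP2, a late JA marker, had 0.546, 0.495 and 0.418 CPM in O3 and 0.721, 1.12 and 0.915 CPM in CA and was not called.

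For ethylene, the rate-limiting synthases ACS2 and ACS6 and the response factors ERF6 and ERF1 rose. Of 28 members, 21 were called higher and 2 lower (median 2.19). The lowest log2 fold change of the list was -4.46, in a member that did not meet the limits for naming. ACS2 had 38.9, 45.7 and 43.5 CPM in O3 and 0.0941, 0.116 and 0.305 CPM in CA (log2 fold change 7.95, SE 0.68). ACS6, a target of MPK3 and MPK6, had 387, 318 and 359 CPM in O3 and 17.0, 18.7 and 26.1 CPM in CA (log2 fold change 4.11, SE 0.19). The response factors ERF6 and ERF1 rose by 5.76 and 4.94. PDF1.2, a defensin marker of joint JA and ethylene signalling, had 1.14, 0.594 and 1.11 CPM in O3 and 0.0941, 0.0773 and 0.741 CPM in CA. It was not called (log2 fold change 1.66, SE 0.85, adjusted p = 0.104) but was called higher without CA replicate 3 (3.38), with a replicate block (1.74) and with the 6 Cvi libraries alone (1.76). EIN2, the central membrane protein of ethylene signalling, was called lower at -0.50 (adjusted p = 0.0446), a call lost without CA replicate 1 (-0.54), CA replicate 2 (-0.41), O3 replicate 1 (-0.44) or O3 replicate 2 (-0.48) and with DESeq2 (-0.42).

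ABA genes were divided, with 15 of 29 members called higher, 6 lower and a median of 0.80. NCED3, the stress-induced step of ABA synthesis, had 63.7, 53.0 and 53.1 CPM in O3 and 5.33, 10.8 and 6.71 CPM in CA (log2 fold change 2.89, SE 0.24). CYP707A3, which breaks ABA down, rose as well, with 26.9, 23.3 and 20.9 CPM in O3 and 0.941, 1.08 and 2.35 CPM in CA (log2 fold change 4.03, SE 0.38). ABA1, the zeaxanthin epoxidase that makes the plastid precursors, had 203, 182 and 197 CPM in O3 and 895, 1118 and 828 CPM in CA (log2 fold change -2.29, SE 0.26). HAI1, a phosphatase that is both an ABA-induced gene and a brake on ABA signalling, rose by 4.97. RAB18, a classical ABA marker, had 3.38, 2.53 and 2.96 CPM in O3 and 3.42, 4.33 and 8.23 CPM in CA and was not called (log2 fold change -0.85, adjusted p = 0.174), although it was called lower when only the 6 Cvi libraries were fitted (-0.77).

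Among genes that move the stomata, lower calls outnumbered higher ones. In the list of guard cells and stomatal movement, 1 of 24 members was called higher, 9 lower and 14 neither (median -0.44). The share lower, 37.5%, was somewhat above the background of 23.2%, which was larger among expressed genes, so no difference from expressed genes is shown for it. MPK12, the kinase impaired in Cvi, had 13.7, 16.9 and 16.4 CPM in O3 and 16.8, 16.9 and 14.4 CPM in CA, with a log2 fold change of -0.04 (SE 0.22, adjusted p = 0.969). HT1, the kinase that MPK12 inhibits, had a log2 fold change of 0.38 (adjusted p = 0.223). SLAC1, the anion channel of stomatal closure, had 4.37, 4.76 and 5.50 CPM in O3 and 8.63, 9.63 and 6.84 CPM in CA. It was not called over 12 libraries (log2 fold change -0.78, adjusted p = 0.134) and was called lower when only the 6 Cvi libraries were fitted. The inward potassium channel KAT2 was the member called higher, with 35.6, 30.5 and 21.4 CPM in O3 and 9.53, 8.00 and 6.62 CPM in CA (log2 fold change 1.85, SE 0.22). Its partner KAT1 was called lower at -0.71 (adjusted p = 0.00221), but not with DESeq2. The blue light receptor PHOT1 had the deepest fall of the list, 2.27.

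More genes of growth hormones were called lower than higher. Of 23 genes for brassinosteroid and gibberellin (GA), 15 were called lower and 4 higher (median -0.88). In GA metabolism, GA20OX1, a gene of GA synthesis, had 0.199, 0.0991 and 0.209 CPM in O3 and 4.86, 5.14 and 4.05 CPM in CA (log2 fold change -4.71, SE 0.46). Its O3 replicate 2 was below the floor of 3 counts (0.149 CPM in that library). GA3OX1 fell by 2.35. GA2OX6, which inactivates GA, had 51.4, 65.8 and 46.8 CPM in O3 and 0.282, 0.580 and 0.523 CPM in CA (log2 fold change 6.91, SE 0.30), and GA2OX2 rose by 5.96. GA2OX1, of the same enzyme family, ran against this pair and fell by 3.41. DWF4, the rate-limiting enzyme of brassinosteroid synthesis, had 6.01, 2.53 and 3.80 CPM in O3 and 13.2, 7.19 and 9.89 CPM in CA (log2 fold change -1.30, SE 0.29). BAS1, which inactivates brassinosteroids, fell by 2.56.

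Among 104 auxin response genes, 45 were called lower and 25 higher (median -0.70, with 12 members at the floor in both groups). SAUR24, of a family that promotes cell expansion, had 0.397, 0.446 and 0.383 CPM in O3 and 8.78, 13.8 and 8.45 CPM in CA (log2 fold change -4.65, SE 0.38), and its copies SAUR19 and SAUR20 share at least 90.6% identity with it. AT3G12830 (SAUR72), of the same family, rose by 4.02. Expansins, xyloglucan-modifying enzymes and cellulose synthases had 20 of 55 members lower and 12 higher (median -0.27). Their share lower was 36.4% against the background of 23.2%, which was larger among expressed genes. EXPA8, an expansin that loosens cell walls, had 1.04, 2.13 and 2.09 CPM in O3 and 40.3, 80.6 and 40.7 CPM in CA (log2 fold change -4.93, SE 0.50). XTH18, which cuts and rejoins xyloglucan, had 818, 825 and 819 CPM in O3 and 0.972, 1.39 and 1.74 CPM in CA (log2 fold change 9.22, SE 0.93). It has a copy, XTH17, with 90.7% identity.

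**Figure D4:**
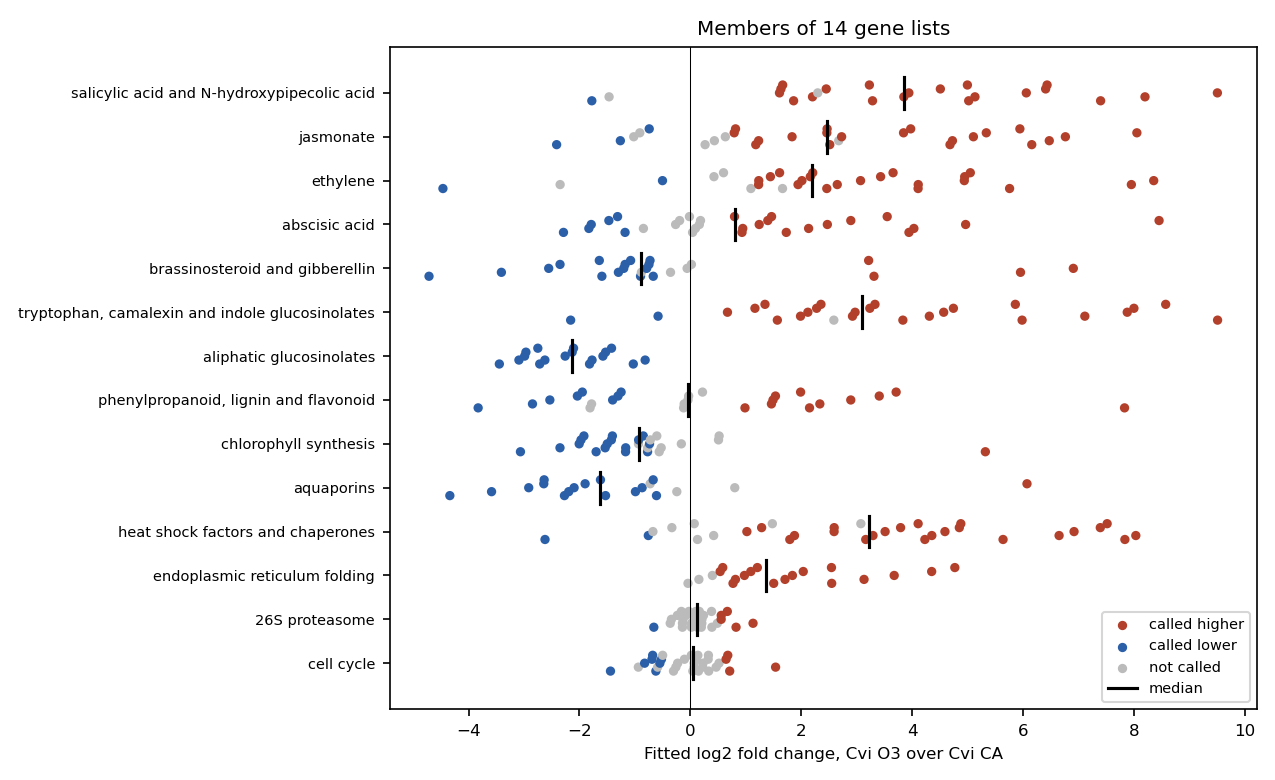
Fitted log2 fold changes of O3 over CA for the members of 14 gene lists, each point 1 gene, red if called higher, blue if called lower and grey if not called, with a black bar at the list median. Aliphatic glucosinolate genes lie wholly below 0 and the tryptophan, camalexin and indole glucosinolate list has its median at 3.10, while the 26S proteasome and the cell cycle lie near 0.

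Genes for defence metabolites derived from tryptophan and genes for those derived from methionine went opposite ways. Camalexin, the phytoalexin of Arabidopsis, and the indole glucosinolates come from tryptophan, and 23 of 26 genes of this list were called higher and 2 lower (median 3.10, 1 lower with DESeq2 or without CA replicate 2 or O3 replicate 2). ASA1, the entry to tryptophan synthesis, had 598, 616 and 646 CPM in O3 and 57.4, 60.4 and 67.1 CPM in CA (log2 fold change 3.33, SE 0.25). CYP79B2, which converts tryptophan to indole-3-acetaldoxime, had 367, 329 and 374 CPM in O3 and 13.0, 16.6 and 15.4 CPM in CA (log2 fold change 4.57, SE 0.40). PAD3, the last enzyme of camalexin synthesis, had 1059.8, 1089 and 1097 CPM in O3 and 3.11, 1.70 and 7.89 CPM in CA (log2 fold change 8.00, SE 0.48). CYP71A13, of the same route, rose by 7.88 and FOX1, an oxidase of the cyanogenic branch, by 9.51. PEN3, a transporter that exports such products, reached between 6249 and 6686 CPM in O3 against between 229 and 416 CPM in CA. MYB34, a regulator of indole glucosinolates, was 1 of the 2 members called lower, with 1.29, 1.54 and 1.43 CPM in O3 and 8.15, 4.95 and 5.93 CPM in CA (log2 fold change -2.16, SE 0.32).

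All 17 genes of aliphatic glucosinolates, which come from methionine, were called lower (median -2.13). Their regulator MYB28 had 28.9, 23.5 and 23.7 CPM in O3 and 202, 209.8 and 182 CPM in CA (log2 fold change -2.97, SE 0.19, adjusted p = 1.27e-40). CYP79F1, which commits elongated methionine to the pathway, had 168, 109.9 and 156 CPM in O3 and 838, 1057 and 777 CPM in CA (log2 fold change -2.62, SE 0.25). Its neighbour CYP79F2, with 92.0% identity, fell by 3.45. MAM1, which elongates the side chain, fell by 1.58. The libraries of O3 lay below those of CA in each of the 17 genes. Among all members, O3 and CA did not overlap for 62.2%, and genes that are called are more often free of overlap.

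Phenylpropanoid genes were divided. Of 26 members, 11 were called higher and 8 lower (median -0.04). PAL1, the entry enzyme, had 1147, 1039 and 1293 CPM in O3 and 102, 69.6 and 94.1 CPM in CA (log2 fold change 3.71, SE 0.41). CCR2, a cinnamoyl-CoA reductase of defence lignin, had 519, 484 and 506 CPM in O3 and 2.48, 1.82 and 2.31 CPM in CA (log2 fold change 7.83, SE 0.53). CHS, the first enzyme of flavonoids, had 29.6, 22.9 and 15.5 CPM in O3 and 172, 143 and 175 CPM in CA (log2 fold change -2.85, SE 0.43).

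Genes that remove hydrogen peroxide and recycle ascorbate and glutathione did not move as 1 block. Of 35 members, 10 were called higher, 12 lower and 13 neither (median -0.51). MDAR3 and MDAR2, enzymes that regenerate ascorbate, rose most. MDAR3 had 211, 282 and 238 CPM in O3 and 2.89, 1.31 and 4.88 CPM in CA (log2 fold change 6.33, SE 0.38), and MDAR2 rose by 4.22. The superoxide dismutase CSD1 rose by 1.63, the peroxidase APX1 by 0.89 and the glutathione reductase GR1 by 0.55. GR2, the plastid and mitochondrial glutathione reductase, fell by 1.14. CAT2, the main peroxisomal catalase of the leaf, had 379, 383 and 344 CPM in O3 and 2231, 2306 and 1937 CPM in CA (log2 fold change -2.55, SE 0.32). VTC2, a controlling enzyme of ascorbate synthesis, had 289.7, 220.3 and 324 CPM in O3 and 735, 674 and 492 CPM in CA (log2 fold change -1.19, SE 0.25). The plastid superoxide dismutase CSD2 overlapped between groups and was not called (-0.72, adjusted p = 0.148), but was called lower without CA replicate 2 (-1.004).

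**Figure D5:**
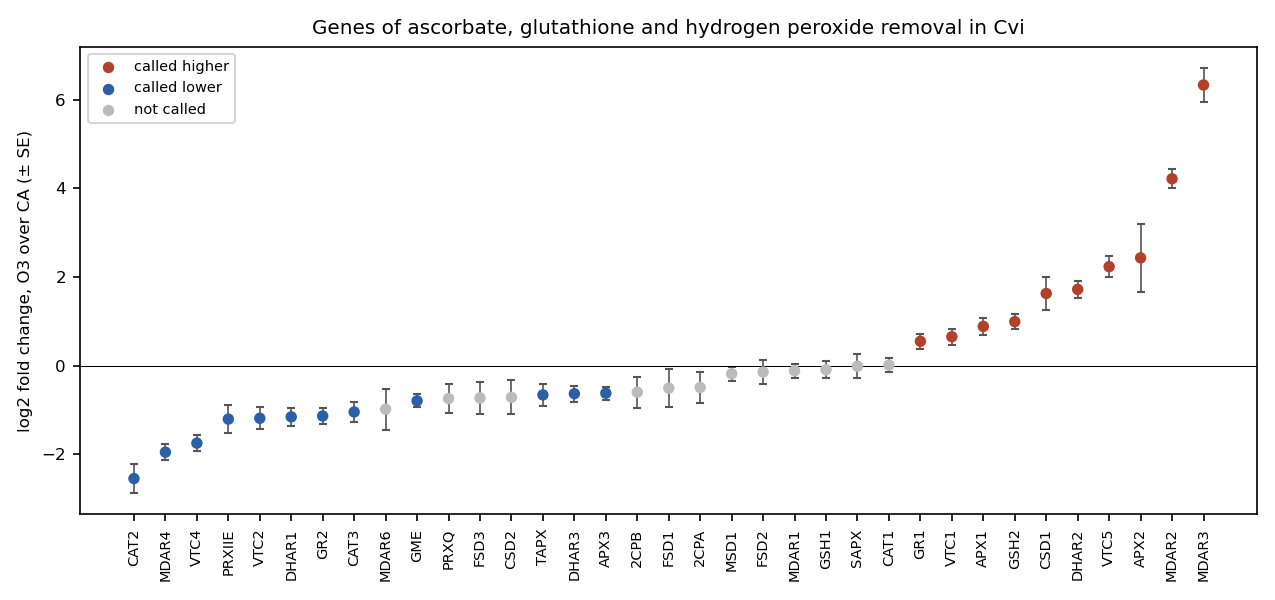
Fitted log2 fold change of O3 over CA (points, with SE as whiskers) for the 35 genes of ascorbate, glutathione and hydrogen peroxide removal, ordered by size. The catalase CAT2 stands at -2.55 at the left end and the ascorbate-regenerating enzyme MDAR3 at 6.33 at the right end, with 10 genes called higher (red), 12 called lower (blue) and 13 not called (grey).

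Glutathione S-transferases, which attach glutathione to reactive compounds, rose more uniformly, with 26 of 40 called higher and 8 lower (median 2.76). GSTU4 had 359, 388 and 373 CPM in O3 and 0.784, 0.348 and 1.13 CPM in CA (log2 fold change 8.95, SE 0.44). Its neighbour GSTU3 was at the floor in CA and had 60.2, 73.7 and 72.0 CPM in O3, at least 604-fold higher. GSTF11, which takes part in aliphatic glucosinolate synthesis, fell by 2.21, with 9.93 ± 3.91 CPM in O3 and 46.0 ± 3.89 CPM in CA (SD, n = 3 each).

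Mitochondrial stress genes were all higher, 6 of 6, with a median of 4.01. AOX1A, the alternative oxidase that bypasses part of the respiratory chain, had 719, 619.6 and 638 CPM in O3 and 65.1, 85.1 and 68.0 CPM in CA (log2 fold change 3.18, SE 0.33). The outer membrane protein OM66, a stress marker of this organelle, had 615, 534 and 567 CPM in O3 and 3.83, 5.76 and 7.01 CPM in CA (log2 fold change 6.70, SE 0.24). NDB2, an external NADH dehydrogenase that works with AOX1A, rose by 3.56.

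Protein folding genes of the heat shock and endoplasmic reticulum (ER) lists were mostly called higher, whereas of all 214 genes annotated in RefSeq with protein folding 65 were called higher and 62 lower (median -0.17). Among heat shock factors and chaperones, 23 of 32 were called higher, 2 lower, and 4 were at the floor in both groups (median 3.23). HSFA2, a factor of heat and oxidative stress, had 305, 352 and 272 CPM in O3 and 3.36, 2.28 and 1.96 CPM in CA (log2 fold change 6.92, SE 0.30). HSP90.1 had 1460.4 ± 130.1 CPM in O3 and 7.95 ± 2.64 CPM in CA (SD, n = 3 each, log2 fold change 7.52, SE 0.34). HSP101, which dissolves aggregates, rose by 4.88 and the small chaperone HSP17.6A by 7.84. HSP18.2, another small heat shock protein, overlapped between groups, with 1.34, 3.27 and 3.03 CPM in O3 and 2.26, 3.21 and 1.83 CPM in CA. HSFC1 fell by 2.62 and was the only member called lower with DESeq2 or without CA replicate 1, CA replicate 2, O3 replicate 1 or O3 replicate 3.

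In ER folding, 17 of 20 members were called higher and none lower, at a lower median of 1.36. BZIP60, the factor spliced in ER stress, had 540.3, 454 and 408 CPM in O3 and 16.4, 16.9 and 18.0 CPM in CA (log2 fold change 4.77, SE 0.18). BIP3, the stress-induced lumenal chaperone, rose by 3.68. BIP2 rose by 2.04, but BIP1 shares 97.2% identity with it. CRT1A, a calreticulin, was called higher at 0.54 (adjusted p = 0.0237), a call lost with upper quartile factors and without CA replicate 2 (0.52), CA replicate 3 (0.54) or O3 replicate 3 (0.52).

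In protein breakdown, the 26S proteasome had 5 of 32 members called higher and 1 lower, and its median of 0.13 turned to -0.047 with upper quartile factors, which move the median of all expressed genes by -0.17. Its subunit RPT3 had 156, 152 and 164 CPM in O3 and 71.6, 71.1 and 72.8 CPM in CA (log2 fold change 1.13, SE 0.17). Of 137 genes annotated in RefSeq with ubiquitin-dependent protein catabolism, 45 were called higher and 16 lower (median 0.23), whereas proteolysis had 65 of 327 higher and 123 lower (median -0.36). Autophagy and cell death genes, a mixed list, had 15 of 21 higher and 1 lower (median 1.42, 2 lower without CA replicate 1). NBR1, a receptor for ubiquitinated cargo, had 512, 658 and 545 CPM in O3 and 123, 149.6 and 127 CPM in CA (adjusted p = 1.79e-15). The metacaspase MC2 rose by 2.93 and BAP1, an inhibitor of cell death, by 7.65. ACD6, an ankyrin protein that promotes SA-dependent defence, was the member called lower, with 163, 136 and 139.6 CPM in O3 and 304, 578 and 641 CPM in CA (log2 fold change -1.80, SE 0.29). Of 10 senescence genes, 6 were called higher and 1 lower (median 1.21). SAG21 had 1054 ± 111 CPM in O3 and 13.5 ± 8.78 CPM in CA (SD, n = 3 each, log2 fold change 6.29, SE 0.52). NYC1, which starts chlorophyll b breakdown, was the member called lower, by 1.08.

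Photosynthesis genes fell together. All 44 genes of photosystems and light harvesting were called lower, with log2 fold changes between -2.55 and -0.65 (median -1.36). With a limit of 1.2 on the log2 scale in place of 1.2-fold, 11 of them were called lower. LHCB2.3, a light-harvesting protein, had 546, 486 and 526 CPM in O3 and 2884, 3558 and 2648 CPM in CA (log2 fold change -2.55, SE 0.22). PSBS, the sensor of energy-dependent quenching, had 1487, 1162 and 1161 CPM in O3 and 2865, 2702 and 2632 CPM in CA (log2 fold change -1.11, SE 0.26). Of 19 genes for electron carriers and the ATP synthase, 18 were called lower (median -0.93). The 1 member called higher was PTOX, the plastid terminal oxidase, with 70.8, 64.2 and 79.6 CPM in O3 and 40.1, 47.8 and 45.0 CPM in CA (log2 fold change 0.69, SE 0.16). In the Calvin cycle and photorespiration, 32 of 37 were called lower and none higher (median -1.32). CP12-2, a regulatory linker of the cycle, had 60.6, 41.7 and 48.2 CPM in O3 and 319, 431 and 304 CPM in CA (log2 fold change -2.81, SE 0.33). PRK, phosphoribulokinase, fell by 2.09 and SHM1, a photorespiratory enzyme of mitochondria, by 0.93.

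Most genes of chlorophyll synthesis fell, whereas 1 gene at its entry rose. Of 26 genes, 16 were called lower and 1 higher (median -0.93). HEMA1 and HEMA2 encode the first committed enzyme, glutamyl-tRNA reductase. HEMA1, the form of green tissue, had 252, 234 and 242 CPM in O3 and 715, 739 and 661 CPM in CA (log2 fold change -1.54, SE 0.24). HEMA2 had 749.6, 714 and 698 CPM in O3 and 16.9, 18.8 and 18.4 CPM in CA (log2 fold change 5.32, SE 0.37), and per kilobase of transcript its level was 327 CPM in O3 and 8.19 CPM in CA, against 105 CPM in O3 and 305 CPM in CA for HEMA1. CHLH, a subunit of magnesium chelatase, fell by 2.01, and GUN4, which activates that enzyme, by 3.06. In plastid isoprenoid and carotenoid synthesis, 16 of 17 genes were called lower and none higher (median -1.08). PSY, the entry enzyme, had 132, 126 and 126 CPM in O3 and 396, 367 and 336 CPM in CA (log2 fold change -1.51, SE 0.18).

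Genes of sugar and water transport changed in the same rosettes. In sugar transport and starch, 10 of 16 genes were called lower and 3 higher (median -1.15). STP13, which takes hexoses up into the cell, had 255, 295 and 295 CPM in O3 and 5.33, 9.36 and 8.63 CPM in CA (log2 fold change 5.18, SE 0.23). SWEET11, a sucrose exporter of the phloem, had 25.8 ± 10.5 CPM in O3 and 109.8 ± 32.2 CPM in CA (SD, n = 3 each, log2 fold change -2.09, SE 0.29). DPE2 and GBSS1, enzymes of starch turnover and amylose synthesis, fell by 2.44 and 2.25. Of 19 aquaporins, 15 were called lower and 1 higher (median -1.62). PIP2A, a water channel of the plasma membrane, had 301, 331 and 346 CPM in O3 and 2095, 2277 and 1738 CPM in CA (log2 fold change -2.64, SE 0.18). TIP2;2, of the vacuolar membrane, fell by 3.59. Of 10 cuticle and wax genes 8 were called lower and none higher (median -1.40), among them CER1, which makes alkanes, with 49.1, 48.8 and 61.8 CPM in O3 and 313, 226 and 135 CPM in CA (log2 fold change -2.08, SE 0.26).

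Clock, ribosome and cell cycle genes were described with the same lists. Of 17 clock genes, 8 were called lower and 3 higher. The morning gene CCA1 had 49.1, 49.9 and 52.5 CPM in O3 and 165, 156 and 99.2 CPM in CA (log2 fold change -1.47, SE 0.27), and the evening gene TOC1 had 52.4, 61.4 and 51.7 CPM in O3 and 10.7, 11.8 and 13.9 CPM in CA (log2 fold change 2.18, SE 0.23). The count of 8 was 5 with DESeq2 or without CA replicate 2. Cytosolic ribosomal proteins had 26 of 191 members called lower and 6 higher (median -0.40), a share lower of 13.6% against the background of 23.2%. This count was 7 with DESeq2 and 55 with upper quartile factors, and it was 13 without CA replicate 1, 11 without CA replicate 3, 17 without O3 replicate 2 and 9 without O3 replicate 3. With the 6 Cvi libraries alone it was 51, and 46 with a replicate block added. Ribosome biogenesis genes had 47 of 176 called lower and 7 higher (median -0.44), with 19 lower under DESeq2, 29 without CA replicate 3 and 27 without O3 replicate 3. Organellar ribosomal proteins had 15 of 56 called lower and 4 higher (median -0.51). The count of 15 was 6 with DESeq2 or without O3 replicate 3, 9 without O3 replicate 2, and 7 without CA replicate 1 or without CA replicate 3. It rose to 24 with upper quartile factors, 25 with the 6 Cvi libraries alone and 27 with a replicate block in these 6. Cell cycle genes had 4 of 32 called higher and 7 lower (median 0.06). The count of 7 was 3 without CA replicate 1 or with DESeq2 and 4 without O3 replicate 3.

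Genes often used as a reference in transcript measurements were not all stable. Of 10, 3 were called higher and 1 lower. UBQ10 had 5056, 4589.6 and 3861 CPM in O3 and 1199, 1358 and 1131 CPM in CA (log2 fold change 1.87, SE 0.26). ACT2, an actin whose copy ACT8 shares 90.9% identity, was called higher at 0.64 (adjusted p = 0.00523), but not with upper quartile factors. GAPC2, a cytosolic glyceraldehyde-3-phosphate dehydrogenase, had 661, 624 and 546 CPM in O3 and 1707, 1099 and 1625 CPM in CA (log2 fold change -1.28, SE 0.26). PP2AA3, a phosphatase subunit, had 67.9, 61.9 and 66.5 CPM in O3 and 60.2, 60.6 and 65.6 CPM in CA (log2 fold change 0.08, SE 0.13, adjusted p = 0.878).

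The response of Cvi was set against that of Sha by the difference of their log2 fold changes, tested in the same model. Over all genes the response was larger (more positive) in Cvi for 1806 (6.33%) and smaller for 742 (2.6%). In the tryptophan, camalexin and indole glucosinolate list, 17 of 26 genes had a larger response in Cvi and none a smaller one. Stress transcription factors had 17 of 36 larger and 2 smaller, JA genes 12 of 29 larger and none smaller. CYP79B2 had a log2 fold change of 4.57 in Cvi and 0.77 in Sha, with a difference of 3.80 (SE 0.56, adjusted p = 1.75e-08). HAI1 had 4.97 in Cvi and 1.34 in Sha (difference 3.63, SE 0.35). SWEET11 was called lower in Cvi, at -2.09, and had 0.16 in Sha (difference -2.25, SE 0.41). In photosystems and light harvesting, 1 of 44 genes differed, and of the 37 genes of the Calvin cycle and photorespiration none was called at this FDR.

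The structure of the genes was compared without a test. For protein-coding genes averaging 1 CPM or more, the median transcript length was 1758 bases in 5441 genes called higher, 1813.5 bases in 5960 called lower and 1723 bases in 7029 called neither. A single exon was found in 18.7% of the genes called higher, 13.6% of those called lower and 11.9% of the rest. Genes called higher and lower were spread over all 5 chromosomes, with between 23.9% and 27.1% of members higher on each.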

How the data were processed

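Estimated counts per gene locus were deposited by the authors, who trimmed reads (Trimmomatic 0.33), assigned them with kallisto to AtRTD2 transcripts of Col-0 and averaged repeated estimates. No normalisation had been applied. Libraries came from a stranded kit. The table lists 34212 loci, of which 69.4% of values were not whole, and the values were rounded. It has 6 more columns, matched to no sample of the labels, which were left out. Of the loci, 33437 matched RefSeq TAIR10.1, which gave symbols, gene models and promoters.

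Counts were fitted with edgeR 4.0.16 (R 4.3.3), TMM factors and 1 mean per group over 12 libraries, and tested against a 1.2-fold change (glmTreat, two-sided, Benjamini-Hochberg FDR of at most 0.05 over 28549 genes with a count in any library). CPM use TMM-adjusted library sizes. A group with at most 3 counts in each library is at the floor, and a fold against it is a lower bound against 3 counts per library. Floors and intervals cover counting error only. The labels call the replicates biological. The p-values measure the spread between pools within groups, estimated per gene over all 12 libraries with the Sha groups included. With the 6 Cvi libraries alone, 7713 genes were called higher and 6809 lower. DESeq2 1.42.0, limma 3.58.1 (used by edgeR), Python 3.11.15 (pandas 2.3.3, scipy 1.17.1, matplotlib 3.10.9) and blastn 2.17.0 (copies named where 90% identity or more covered 50% of a transcript or more) were also used. The fit was tested on simulated data. The alternatives were the quasi-likelihood test, DESeq2, a limit of 1.2 on the log2 scale, no limit, the 6 Cvi libraries alone, other scaling, filterByExpr, a replicate block, single libraries left out, and promoter windows of 150 bases.

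The members and the 37 lists were chosen with earlier results of these data known. The lists were written from gene function, and 3 genes were removed after their values were seen because their names had placed them in the wrong family. Genes named are the 8 largest rises and falls with more than 3 counts in every library of the lower group, a mean of at least 10 CPM and no overlap between groups, the 8 largest gains and losses per kilobase, members chosen for their role, and the largest rise and fall called in each list under the same limits on counts and overlap. One result under this rule is not reported here. Added after their values were seen were TCH3, OXI1, PBS3, PR2, JAZ1, ACS2, GA20OX1, GA2OX2, CYP71A13, MDAR2, GR1, GR2, CSD1, GSTU3, NDB2, HSP18.2 and PIP2A.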

Additional observations from a re-analysis of the deposited data

Results flagged for a closer look

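Of 167 genes chosen by the naming rule, 63 had a response that differed between Cvi and Sha in the test of the difference itself (log2 fold change of Cvi O3 over CA minus that of Sha O3 over CA, edgeR, FDR of at most 0.05), 45 with a larger and 18 with a smaller value in Cvi. Over all genes tested, 6.33% had a larger and 2.6% a smaller response in Cvi. Many of the 167 were chosen for large changes in these same Cvi libraries, which favours a difference from Sha in the same direction. The count of 63 is therefore no evidence about these genes as a group. Each value that follows is this difference on the log2 scale. Of the 63, 15 lost the call when a single Cvi library was left out, with 10 lost without CA replicate 1, 11 without CA replicate 2, 4 without CA replicate 3, 5 without O3 replicate 1, 11 without O3 replicate 2 and 7 without O3 replicate 3. The 15 were AT5G24155, CCD4, CER1, CYP707A3, GSTF6, HSFA2, HSP101, JAZ10, LTP1, NHL3, PAD2, PP2CA, PRE1, TOC1 and WRKY60. Groups of 3 libraries were too small for a check of single outlying libraries. Both accessions were assigned to Col-0 transcripts, and the part of sequence differences in these values was not tested.

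Among the largest rises of Cvi the difference was 3.38 for AT1G56060, 5.002 for AT4G39670, 3.05 for CML37, 2.91 for AT3G02840, 3.41 for PMZ, 3.39 for CRK13, 6.82 for AT2G45220 and 3.47 for AT1G57650. For the deepest falls it was -2.40 for TBL26, -2.17 for CYP706A6, -2.57 for FRO7, -1.89 for AT5G24155, -1.72 for CCD4, -2.04 for PRE1 and -3.26 for DES1. The gains in abundance gave 1.4035 for GSTF6, 1.36 for NHL3 and 1.70 for BCB.

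In signalling and transcription the values were 1.48 for RBOHD, 2.99 for ZAT12, 1.56 for WRKY40, 2.28 for MYB15, 2.57 for ATAF1 and -1.34 for WRKY60. SA genes gave 2.19 for ICS1, 3.22 for EDS5, 2.24 for CBP60G and 5.77 for FMO1, JA genes 2.34 for AOC3, 1.87 for LOX3 and 1.63 for JAZ10, and the ethylene gene ACS6 gave 1.08. ABA genes gave 3.63 for HAI1, 1.93 for CYP707A3 and 1.12 for PP2CA, and the guard cell channel KAT2 gave 1.37. PP2CA itself was not called in Cvi (0.18). Growth hormone genes gave 2.12 for GA2OX6, -1.64 for DWF4 and 1.80 for AT3G12830.

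Secondary metabolism gave 1.39 for ASA1, 3.80 for CYP79B2, 2.49 for PAD3, 3.51 for FOX1, -1.49 for MYB28 and -1.90 for CYP79F2. Redox and organelle genes gave 2.21 for MDAR3, 3.40 for GSTU4, 1.34 for OM66, 2.27 for HEMA2 and 3.87 for AT5G63300, a gene of an organellar ribosomal protein. In protein folding, breakdown and cell death the values were 1.54 for HSFA2, 1.89 for HSP101, 1.28 for BZIP60, -0.72 for the proteasome subunit PAD2, 4.40 for BAP1 and -1.78 for ACD6. Transport, surface and clock genes gave 1.37 for STP13, -2.25 for SWEET11, -2.27 for TIP2;2, -1.18 for CER1, -0.85 for LTP1, -2.49 for LTP3 and 1.097 for TOC1. For ACD6, WRKY60, SWEET11, LTP3, PAD2 and DWF4 a gene called lower in Cvi had a log2 fold change between -0.02 and 0.34 in Sha.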

How the results depend on the processing

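No gene was called in opposite directions between the reported fit and any other setting. With a limit of 1.2 on the log2 scale in place of 1.2-fold, 3773 genes were higher and 1551 lower in Cvi O3. The difference from Sha was then larger for 464 and smaller for 66 genes, since that limit asks for larger changes. Among the list counts, 42 moved clearly at this limit and 32 held. Genes called lower then numbered 11 in photosystems and light harvesting and 11 in the Calvin cycle and photorespiration. They numbered 4 for electron carriers and the ATP synthase, 6 for chlorophyll synthesis and 4 for plastid isoprenoids and carotenoids. The smaller responses, 742 as reported, were 489 with the quasi-likelihood test, 323 with DESeq2 and 1217 with total count scaling, and the cause was not tested. Upper quartile factors moved the median of expressed genes by -0.17, so that 43.4% of called genes were higher, against 51.2% as reported and 70.9% at the log2 limit, and turned the 26S proteasome median to -0.047. Leaving out single libraries gave between 6334 and 6865 genes higher, 5932 and 6169 lower, 1476 and 1684 with a larger and 499 and 655 with a smaller response. A group left with 2 libraries then relied on the spread shared with the others. Samples with the same replicate number were not paired, as their deviations from the group means correlated at 0.132, -0.115 and -0.0636 over 19107 genes. A replicate block gave 7025 genes higher and 6842 lower, and 2043 larger and 930 smaller responses, and 7690 higher and 6744 lower with the 6 Cvi libraries alone. Across settings, named genes kept direction and side of the threshold in 2750 comparisons, lost the call in 77 and gained one in 12. For the difference from Sha these counts were 2366, 115 and 24, with 41 of the losses at the log2 limit, 11 with DESeq2 and 10 with the quasi-likelihood test. Genes near the floor of 3 counts could not show a fall at this depth.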

Other observations

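Functional terms in the RefSeq annotation, read as a description over terms with at least 40 members, gave some groups outside the lists. Of 55 genes annotated with the response to chitin, 40 were called higher and 2 lower in O3 (median log2 fold change 2.69). Among genes for the traffic of proteins, 45 of 81 genes of vesicle-mediated transport were called higher and 8 lower. Of 144 genes of intracellular protein transport, 71 were higher and 18 lower. Of 816 genes of protein phosphorylation, 355 were higher and 187 lower.

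In the opposite direction, 22 of 42 genes of DNA replication were called lower and 2 higher (median -0.72), and 28 of 76 genes of DNA repair lower and 10 higher. The receptor kinases annotated with transmembrane receptor protein tyrosine kinase signalling had 59 of 119 members lower and 31 higher, against the rise of the CRKs. Genes annotated with the defence response to bacterium were divided, with 27 of 91 higher and 31 lower, whereas those of the innate immune response had 59 of 111 higher and 5 lower. The 70 miRNA gene loci were called less often than the background in both directions, with 12 lower (17.1%) and 5 higher (7.14%). This was not particular to them, since pseudogenes were at 9.95% higher and 6.05% lower. Whether low counts account for either was not tested. The backgrounds were 24.3% higher and 23.2% lower over all genes tested, and both shares were larger among expressed genes.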
